A study of Mus musculus with 3 samples.

Results

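The genes described here build the hemidesmosome, the junction that fastens the basal face of an epithelial cell to the basement membrane, together with chains of laminin-332, the matrix protein it grips. They were chosen by name: every probe set of the array annotated with exactly 1 gene symbol among Itga6, Itgb4, Itga3, Lama3, Lamb3, Col17a1, Dst, Plec and Cd151. These were 9 genes with 21 probe sets, of 17097 genes with 28898 such probe sets on the array. Their RNA was measured on 3 Affymetrix arrays, in mammary cells of female Lgr5-IRES-GFP mouse embryos at day 14 (E14) that had been sorted for high CD49f and high Lgr5 reporter signal (CD49fHi Lgr5Hi). All 3 samples belonged to this 1 group, each pooled all female embryos of 1 litter, and there was no sorted population or genotype to compare them with. Epidermis and mammary gland were digested together before the sort, a sample held 813 or 2000 cells without a record of which, and the cDNA was amplified over 25 cycles.

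In a hemidesmosome, integrin alpha 6 pairs with integrin beta 4 to bind laminin-332 outside the cell, and plectin and the epithelial form of dystonin tie the beta 4 tail to keratin filaments inside it. Collagen XVII spans the membrane beside the integrin, and the tetraspanin CD151 associates laterally with it. Integrin alpha 3, paired with beta 1, is another laminin-332 receptor, and it belongs to focal adhesions rather than to hemidesmosomes. Basal cells of skin and mammary gland carry these junctions, and CD49f, the surface marker of this sort, is integrin alpha 6 itself. Itga6 RNA is therefore the product of a gene the cells were selected for.

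All 9 genes gave a signal above background, as did 52.5% of all genes tested. Itga6, whose protein the sort selected for, is among the 9. Background was set on each array by 78 olfactory and vomeronasal receptor genes, which belong to the sensory cells of nose and vomeronasal organ. The threshold was their 95th percentile, which was 6.29 on replicate 1, 6.23 on replicate 2 and 6.22 on replicate 3 (log2). A gene was called above background when its mean distance over this threshold passed an adjusted p of 0.05 by limma (one-sided, Benjamini-Hochberg over 17097 genes). The 9 genes lay a median of 3.79 log2 units above the threshold (from 1.17 to 4.12), beside a median of 0.63 over all genes tested and 2.00 over the 8972 genes above background. With the probe sets of each gene averaged, the median was 1.90 for the members and 0.24 for all genes, and with the lowest probe set it was 1.17 and -0.25. These medians describe the lists and give no order of genes. The receptor threshold was permissive, since 11 of 38 genes restricted to unrelated tissues also passed it. Under a higher threshold, set by these 38 genes, 8 of the 9 genes and 29.2% of all genes were above background, and Lamb3 was the gene that was not. Each gene was represented by its probe set with the highest mean, and no ranking of genes by level was made, since probe sets differ in how strongly they bind.

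**Figure D1:**
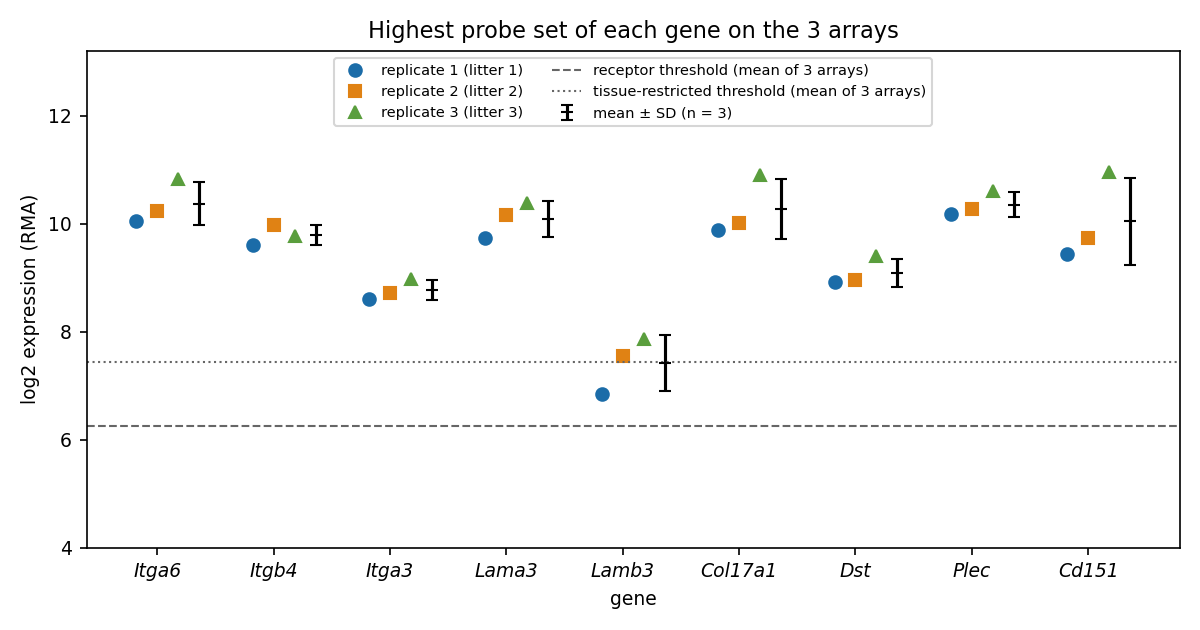
Log2 expression of the highest probe set of each of the 9 genes (y axis) on the 3 arrays, with mean ± SD (n = 3) in black and the means of the receptor and tissue-restricted thresholds as dashed and dotted lines. All points lie above the receptor threshold, and Lamb3 is the gene whose mean, 7.42, lies at the tissue-restricted threshold.

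Defining markers of basal epithelium were detected in the sorted cells. The basal markers Krt5 (12.15 ± 0.16), Krt14 (11.38 ± 0.25), Cdh3 (9.52 ± 0.07) and Krt15 (7.29 ± 0.31, SD, n = 3 each), all log2 values, were above background, with limma adjusted p of 4.47e-06, 9.75e-06, 2.02e-05 and 0.00307. Trp63, the gene of the basal transcription factor p63, stood at 10.53 ± 0.39 and Lgr5, an R-spondin receptor gene and the other gene of the sort, at 10.27 ± 0.44. The luminal keratin genes Krt8 (10.07 ± 0.33) and Krt18 (8.89 ± 0.51) were above background too. RNA came from pooled cells, so the anchoring genes cannot be assigned to one of the epithelial types. Nor can their signal be assigned to epithelium alone, since 8 of 9 dermal mesenchyme markers were above background as well. In such bulk RNA, a lower value from fewer cells of a type and one from less RNA per cell cannot be told apart.

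The integrin chains of the hemidesmosome were both clearly detected. Itga6, the alpha 6 chain, read 10.05, 10.24 and 10.82 (log2) on replicates 1, 2 and 3, a mean of 10.37 ± 0.40 (SD, n = 3) that was 4.12 ± 0.19 (SE) above the threshold (limma adjusted p = 3.36e-05). Replicate 3 was the high array and the other 2 lay close together. A second probe set of Itga6 (1422445_PM_at) had 9.21, 9.53 and 11.11 on the same arrays. Against the first probe set (1422444_PM_at) it was lower by 0.85 on replicate 1 and by 0.70 on replicate 2 but higher by 0.29 on replicate 3, so the pair did not keep a fixed distance across the litters. Itgb4, the beta 4 chain that is found only with alpha 6, had 9.61, 9.98 and 9.78, a mean of 9.79 ± 0.19 that was 3.54 ± 0.14 (SE) above the threshold (limma adjusted p = 2.24e-05). Its single probe set was highest on replicate 2, not on replicate 3.

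Itga3, the alpha 3 chain, was above background with each of its 3 probe sets, and these disagreed on the order of the litters. The highest (1460305_PM_at) read 8.61, 8.72 and 8.97 (log2) on replicates 1, 2 and 3, a mean of 8.77 ± 0.18 (SD, n = 3; limma adjusted p = 6.80e-05), and was highest on replicate 3. The next (1421997_PM_s_at) had 8.49, 8.39 and 7.86, and the lowest (1455158_PM_at) had 7.51, 7.55 and 6.91, both lowest on replicate 3. No single statement on Itga3 in replicate 3 holds for all of its probe sets. RefSeq start windows of 300 bases (250 before to 50 after a transcript start, GRCm38.p6) were at hand for 5 of the 9 genes, and 4 windows are shown with short motifs in capitals. For Itga3 the window on the minus strand at chr11:95069149-95069448 is shown because it was the member window with a match to TGANTCA. These letters are a loose form of the AP-1 motif that allows any base at the centre. The match begins 12 bases after the start and has A at the centre.
Itga3: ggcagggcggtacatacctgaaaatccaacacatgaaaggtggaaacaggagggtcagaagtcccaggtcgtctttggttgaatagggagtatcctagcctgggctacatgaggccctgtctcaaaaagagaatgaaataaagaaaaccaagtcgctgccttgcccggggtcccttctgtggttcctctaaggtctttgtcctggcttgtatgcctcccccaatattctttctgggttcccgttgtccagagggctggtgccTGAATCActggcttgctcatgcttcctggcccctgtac

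The laminin-332 chains on the array differed in how firmly they stood above background. Lama3, the alpha 3 chain of the trimer, read 9.73, 10.16 and 10.38 (log2) on replicates 1, 2 and 3, a mean of 10.09 ± 0.33 (SD, n = 3) that was 3.84 ± 0.18 (SE) above the threshold (limma adjusted p = 3.18e-05). Replicate 1 was the low array. Its other probe set (1444860_PM_at) stayed below the threshold on all 3 arrays, at 5.57, 5.65 and 5.87. Lamb3, the beta 3 chain, had 6.84, 7.55 and 7.87, a mean of 7.42 ± 0.52 that was 1.17 ± 0.25 (SE) above the threshold (limma adjusted p = 0.00615). Replicate 1 was again the low array, 0.87 below the mean of the other 2. With tissue-restricted genes as background Lamb3 lay 0.01 under the threshold, and against the brightest of the antigenomic control probe sets it lay 0.04 over the threshold without passing the test (adjusted p = 1 in both). One of the overlapping start windows of Lamb3, on the plus strand at chr1:193301993-193302292, is shown as a member window with no match to the motifs searched, which was also so for both windows of Dst and 1 of Itga3. No relation between motifs and the litters was tested.
Lamb3: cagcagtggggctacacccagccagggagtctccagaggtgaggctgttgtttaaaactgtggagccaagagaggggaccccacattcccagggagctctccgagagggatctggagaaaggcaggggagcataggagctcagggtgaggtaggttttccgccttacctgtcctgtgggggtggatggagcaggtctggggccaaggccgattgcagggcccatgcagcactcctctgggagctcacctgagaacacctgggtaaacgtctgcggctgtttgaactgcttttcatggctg

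Col17a1, which encodes the transmembrane collagen XVII (BP180), differed between the litters by 1.02 log2 units as deposited and by 0.68 with arrays centred. It read 9.89, 10.02 and 10.91 (log2) on replicates 1, 2 and 3, with a mean of 10.27 ± 0.56 (SD, n = 3) that was 4.02 ± 0.24 (SE) above the threshold (limma adjusted p = 6.89e-05). Replicates 1 and 2 lay close together and replicate 3 stood above them. Its single start window, on the minus strand at chr19:47691993-47692292, is shown for its 2 copies of TATAAA, which begin 140 and 91 bases before the start and lie apart from each other.
Col17a1: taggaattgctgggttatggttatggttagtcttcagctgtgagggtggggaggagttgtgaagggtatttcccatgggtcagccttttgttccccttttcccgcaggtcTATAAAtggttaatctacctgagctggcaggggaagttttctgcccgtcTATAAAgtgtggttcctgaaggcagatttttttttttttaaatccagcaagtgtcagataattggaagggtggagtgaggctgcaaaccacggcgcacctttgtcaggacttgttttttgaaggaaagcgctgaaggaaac

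The plakin genes, whose large cytoplasmic proteins join the integrin to the cytoskeleton, ranged over the litters by 0.42 (Plec) and 0.47 (Dst) with their highest probe sets, beside a median of 0.48 for genes above background. Plec, the plectin gene, read 10.18, 10.27 and 10.61 (log2) on replicates 1, 2 and 3, a mean of 10.35 ± 0.22 (SD, n = 3) that was 4.10 ± 0.14 (SE) above the threshold (limma adjusted p = 1.63e-05). A second probe set (1434610_PM_at) followed it with 9.81, 9.82 and 10.25. The remaining one (1437554_PM_at) had 8.91, 9.03 and 8.40 and was lowest where the others were highest, on replicate 3. Dst, the dystonin gene, which yields BPAG1e in epithelium and other forms in nerve and muscle, had 8.92, 8.96 and 9.39, a mean of 9.09 ± 0.26 (2.84 ± 0.17 above the threshold, SE, adjusted p = 6.14e-05). Another of its 4 probe sets (1421276_PM_a_at) had nearly the same values, 8.92, 8.88 and 9.22. The other two were weaker and lowest on replicate 1, with 7.05, 8.23 and 7.89 for 1421117_PM_at and 6.30, 6.84 and 7.24 for 1450119_PM_at. The last was over the threshold on each array but not called by the probe set test (limma adjusted p = 0.0738). The arrays do not say here which form of dystonin each probe set reads.

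Cd151, the tetraspanin gene, had probe sets that differed widely, also in how far the litters lay apart. Its highest probe set (1456085_PM_x_at) read 9.44, 9.74 and 10.95 (log2) on replicates 1, 2 and 3, a mean of 10.04 ± 0.80 (SD, n = 3) that was 3.79 ± 0.33 (SE) above the threshold (limma adjusted p = 0.000228). The next (1424093_PM_x_at) had 7.53, 7.81 and 9.60. In both, replicate 3 was far above the others. The ending _x_at marks probe sets with probes that may also bind other transcripts. The probe set of Cd151 without such a mark that was above background (1451232_PM_at) had 7.65, 7.77 and 8.20, and the remaining one (1420921_PM_at) lay below the threshold on all 3 arrays, at 5.18, 5.26 and 5.67. Without the probe sets marked as cross-hybridising, Cd151 was still above background, by 1.62 (limma adjusted p = 0.000544), and its excess on replicate 3 over the mean of the other arrays was 0.49 instead of 1.36. The start window of Cd151 on the plus strand at chr7:141467112-141467411 is shown for its 3 matches to the AP-2 motif GCCNNNGGC, which do not overlap and begin 30 and 13 bases before and 25 bases after the start.
Cd151: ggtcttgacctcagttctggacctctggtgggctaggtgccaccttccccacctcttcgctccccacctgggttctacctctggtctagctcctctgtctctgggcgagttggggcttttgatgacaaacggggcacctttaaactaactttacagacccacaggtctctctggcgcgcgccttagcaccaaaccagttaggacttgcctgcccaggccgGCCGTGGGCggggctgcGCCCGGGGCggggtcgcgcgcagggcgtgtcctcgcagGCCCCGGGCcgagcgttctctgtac

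These motifs and a p53 family site were searched on both strands of the 9 member windows and of all 32851 windows of the table. GCCNNNGGC and TGANTCA read the same on both strands. GCCNNNGGC was in 2 member windows, both of Cd151, and in 16.6% of all windows. TGANTCA was in 1 member window and in 7.81% of all windows, and TATAAA was in 1 and in 13.6%. A pair of CATG letters with 6 bases between them, the strict form of the p53 family site used here, was in 0 member windows and in 0.712% of all windows. A match of letters is a description of the window and not a binding site. The G and C content of the member windows ran from 46.0% (a Dst window) to 70.3% (the other Dst window), beside a median of 52.7% over all windows.

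Across all 21 probe sets of the 9 genes, 18 were above background, beside 46.8% of the single-symbol probe sets of the array. The 3 that were not belonged to Lama3, Dst and Cd151, whose other probe sets were above background. Calls thus differed within 3 of the 6 members with several probe sets, and within 40.7% of all genes with several. The means of a member's probe sets spread over a median of 1.94 log2 units, against 1.45 over all 7180 genes with several probe sets, and the widest spreads were those of Cd151 (4.67) and Lama3 (4.39). Probe sets above background pointed in opposite directions on replicate 3 for 2 of the 5 members with several of them, Itga3 and Plec, and for 39.1% of such genes overall. With 6 and 5 such members, these shares say nothing particular about the anchoring genes.

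**Figure D2:**
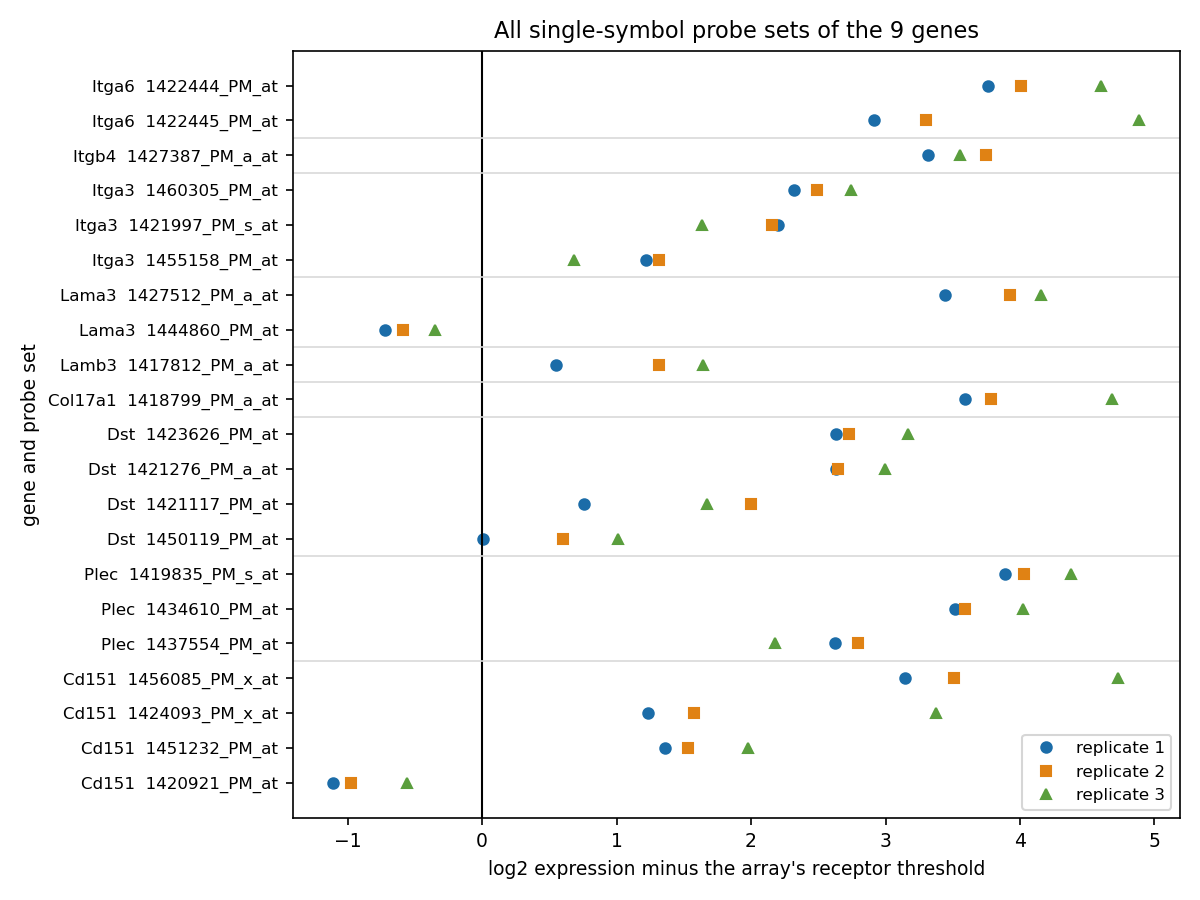
All 21 probe sets of the 9 genes, as log2 expression minus the receptor threshold of the same array (x axis), with 1 symbol per replicate. Probe sets of Lama3 and Cd151 lie on both sides of 0, and replicate 3 is the highest array in some probe sets of Itga3 and Plec and the lowest in others.

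With their highest probe sets, the members differed between litters in a shared direction on replicate 1. All 9 were lower there than the mean of replicates 2 and 3, by 0.23 (Itga3) to 0.91 (Cd151), except that Itga3 was higher by 0.14 when its probe sets were averaged, and 64.8% of the genes above background were lower. On replicate 3, 8 of the 9 were higher than the mean of the other arrays, as were 68.3% of the genes above background, and Itgb4 was the exception (-0.02), a count that was 7 with arrays centred, 6 with quantile normalization and 7 with probe sets averaged. The median difference on replicate 3 was 0.45 for the members and 0.26 for all genes above background, and for the members it was 0.10 with arrays centred and 0.01 with quantile normalization. That array as a whole stood higher, with a median of 8.49 over genes above background against 8.15 and 8.14 on replicates 1 and 2. After each array was centred on this median, all 9 members were again lower on replicate 1 (43.8% of all genes above background were), by 0.07 to 0.75. On replicate 3, 7 of 9 were then higher (43% of all), with Itga3 (-0.05) and Itgb4 (-0.36) lower, and with quantile normalization Plec (-0.03) was lower too. With quantile normalization all 9 members were lower on replicate 1 as well. For Itga3 (-0.02), Dst (-0.04), Plec (-0.05) and Itgb4 (-0.05) that difference was slight. The share of genes above background in these directions is not given for quantile normalization or averaged probe sets. The member counts under those settings cannot be set against it. As deposited, the other probe sets of Itga3 (0.37 and 0.28) and 1 of Plec (0.20, 1437554_PM_at) were higher on replicate 1. Each litter was 1 array, so there is no test of these differences, and litter, number of sorted cells and array processing cannot be told apart.

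**Figure D3:**
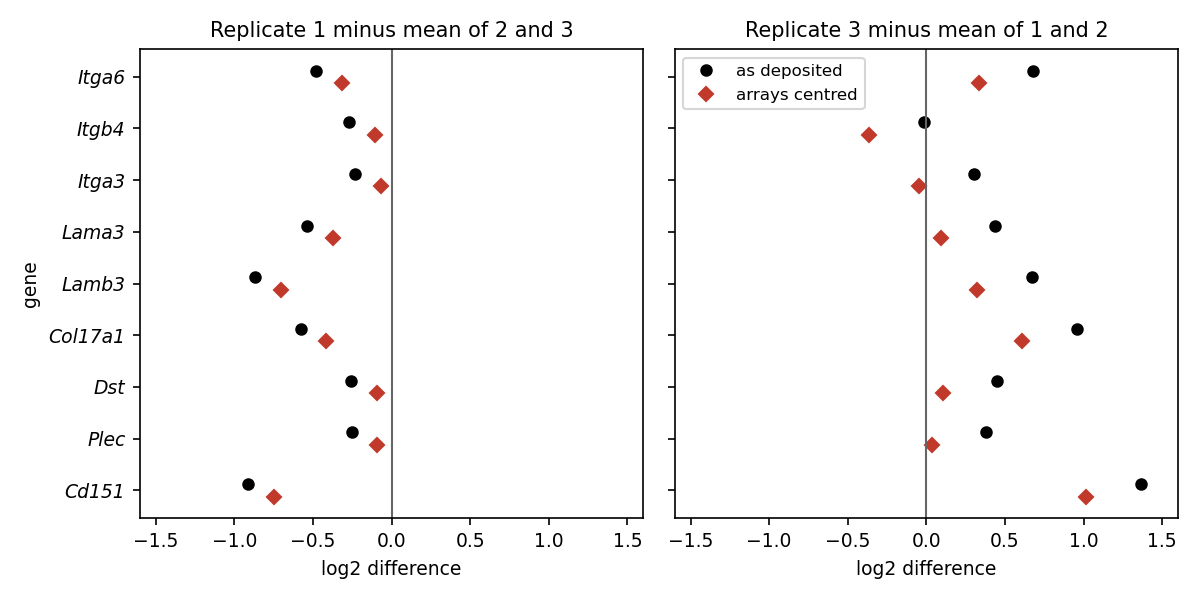
Log2 difference (x axis) of replicate 1 from the mean of replicates 2 and 3 (left) and of replicate 3 from the mean of replicates 1 and 2 (right) for each of the 9 genes, as deposited (black) and with arrays centred on the median of genes above background (red). All 9 genes lie left of 0 on replicate 1 under both scalings, and centring moves the replicate 3 differences toward lower values.

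With highest probe sets, 3 of the 9 members had a range of 1 log2 unit or more, Cd151 (1.52), Lamb3 (1.02) and Col17a1 (1.02). Among the genes above background 13.8% had such a range over the arrays. With centred arrays this held for Cd151 alone (1.18; 10.9% of genes above background), and with quantile normalization again for Cd151 alone (1.11; 10.6%). Without probe sets ending in _x_at or _s_at the range of Cd151 was 0.55, and with probe sets averaged that of Itga6 was 1.34. As deposited and with highest probe sets, the narrowest ranges were those of Itga3 (0.36), Itgb4 (0.37) and Plec (0.42). With centred arrays these were 0.12, 0.56 and 0.10, and with quantile normalization that of Itgb4 was 0.63. Other probe sets of Itga3 (0.64 and 0.65) and of Plec (0.63, 1437554_PM_at) ranged wider as deposited. So did probe sets above background of Itga6 (1.91, 1422445_PM_at) and Dst (1.18, 1421117_PM_at), whose highest probe sets had ranges of 0.77 and 0.47. The median SD over the litters was 0.33 for the 9 members and 0.26 for all genes above background. Replicates 1 and 2 were the closest pair, with a median absolute difference of 0.19 for the members and 0.12 for the genes above background.

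Trp63 and Lgr5 were lower on replicate 1 as well, by 0.61 and 0.42 against the mean of the other arrays, and Krt14, the keratin that plectin and BPAG1e tether, lay at 11.09 there against 11.51 and 11.54 on replicates 2 and 3. As deposited, markers of dermal mesenchyme had a median difference of 0.16 on replicate 1 and -0.19 on replicate 3. These signs were opposite to those of the members and most genes above background (64.8% lower on replicate 1, 68.3% higher on replicate 3). The same signs were seen for markers of endothelium (0.23 and -0.10), leukocytes (0.23 and -0.19), skeletal muscle (0.08 and -0.22) and platelets and erythroid cells (0.14 and -0.73). Most genes of these lists, unlike the dermal one, were not above background. Schwann and neural markers had medians of -0.01 and 0.10, and suprabasal and periderm markers of -0.02 and -0.20. Each of these medians was the value of a gene not above background. In both lists the markers above background went in both directions on replicates 1 and 3. Of the dermal markers 8 of 9 were above background, at summed log2 values of 90.3, 89.2 and 89.1 on replicates 1, 2 and 3. They lay a median of 3.85 above the threshold. The collagen genes Col1a1 (12.99 ± 0.15) and Col3a1 (12.76 ± 0.13), the decorin gene Dcn (11.43 ± 0.07) and the dermal factor gene Twist2 (10.80 ± 0.27), named after their values were seen, were all above background, as was Pdgfrb (8.84 ± 0.20, SD, n = 3 each), and Pdgfra (4.89 ± 0.55) was the marker that was not. The part of these cells in the litter differences of the anchoring genes was not tested.

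Other cells of skin also use some of these genes: endothelium carries alpha 6, Schwann cells carry alpha 6 and beta 4, and muscle carries plectin. These are examples and not a full list. Dermal mesenchyme, with 8 of 9 markers above background, is not among them, and its use of the anchoring genes was not examined. Endothelial markers were above background in 2 of 10 cases (Pecam1 at 7.63 ± 1.01 and not Cdh5 at 5.81 ± 0.27, SD, n = 3). Schwann and neural markers were so in 3 of 7 (such as Sox10 at 8.02 ± 0.22, and not Mbp, Foxd3, S100b or Elavl4). Skeletal muscle markers were so in 1 of 8 (Myod1 at 7.07 ± 0.25 and not Myog at 5.97 ± 0.15). The summed log2 values ran from 61.4 to 63.4 for endothelium, 46.9 to 47.5 for Schwann and neural cells, 45.0 to 49.0 for muscle, 48.5 to 50.7 for leukocytes, and 42.4 (replicate 3) to 47.7 for platelets and erythroid cells. Leukocyte markers reached 2 of 8 (Cd68 at 8.83 ± 0.26 and not Ptprc at 4.03 ± 0.20, SD, n = 3). Platelet and erythroid markers reached 2 of 7 (Klf1 at 8.15 ± 0.81 and Itga2b at 7.09 ± 0.43, and not Pf4, 5.99 ± 0.20, or Gp9, 7.12 ± 1.08). Suprabasal and periderm markers reached 3 of 9, with Krt10 at 6.94, 7.70 and 9.18 on replicates 1, 2 and 3 and Krt1 (6.66 ± 0.34) not above background. The part of such cells, and of dermal mesenchyme, in the members' signal was not tested.

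Around the members, 43 of 56 other genes of cell anchoring were above background by the same limma test, beside 52.5% of all genes. Of other basement membrane genes 14 of 18 were, among them the laminin chain genes Lama1 (log2 value 9.75 ± 0.14), Lama2 (7.92 ± 0.26) and Lamb1 (8.998 ± 0.141, SD, n = 3), and not Lamc3 (6.47 ± 0.48) or the collagen IV gene Col4a3 (5.21 ± 0.09). Col7a1, the anchoring fibril collagen that lies beneath hemidesmosomes, stood at 9.97 (adjusted p = 3.04e-05). Col7a1 was named after its value was seen. Of the other epithelial integrin chains 4 of 7 were above background, including Itgb1 (10.76 ± 0.06), the partner of alpha 3, Itga9 (8.20 ± 0.07) and Itgav (9.32 ± 0.43), and not Itga2 (6.45 ± 0.12) or Itga5 (6.21 ± 0.60).

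Plakin family genes other than Plec and Dst were above background in 4 of 5 cases. Dsp, the desmoplakin gene of desmosomes, stood at a log2 value of 11.56 ± 0.10, the cornified envelope genes Ppl and Evpl at 7.42 ± 0.08 and 7.63 ± 0.10, and Macf1, whose protein links microtubules to actin, at 10.56 ± 0.52 (SD, n = 3 each), while Eppk1 (6.36 ± 0.72) was not above background. Tetraspanins other than Cd151 reached 6 of 9, with Cd9 (9.67 ± 0.47), Cd81 (11.001 ± 0.062) and Cd82 (6.97 ± 0.27) above background and the leukocyte tetraspanins Cd37 (5.99 ± 0.16) and Cd53 (4.89 ± 0.49) not. Among proteases that cut laminin-332 chains or collagen XVII, 5 of 7 were above background, such as Bmp1 (10.65 ± 0.12), Mmp2 (10.22 ± 0.32) and Mmp14 (9.88 ± 0.13), and Tll1 (4.19 ± 0.65) and the sheddase gene Adam9 (6.05 ± 0.89) were not. All 3 measured basal keratins and all 7 measured linkers of focal adhesions, such as Tln1 (10.15 ± 0.12), Vcl (10.65 ± 0.18) and Ilk (9.59 ± 0.20), were above background.

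**Figure D4:**
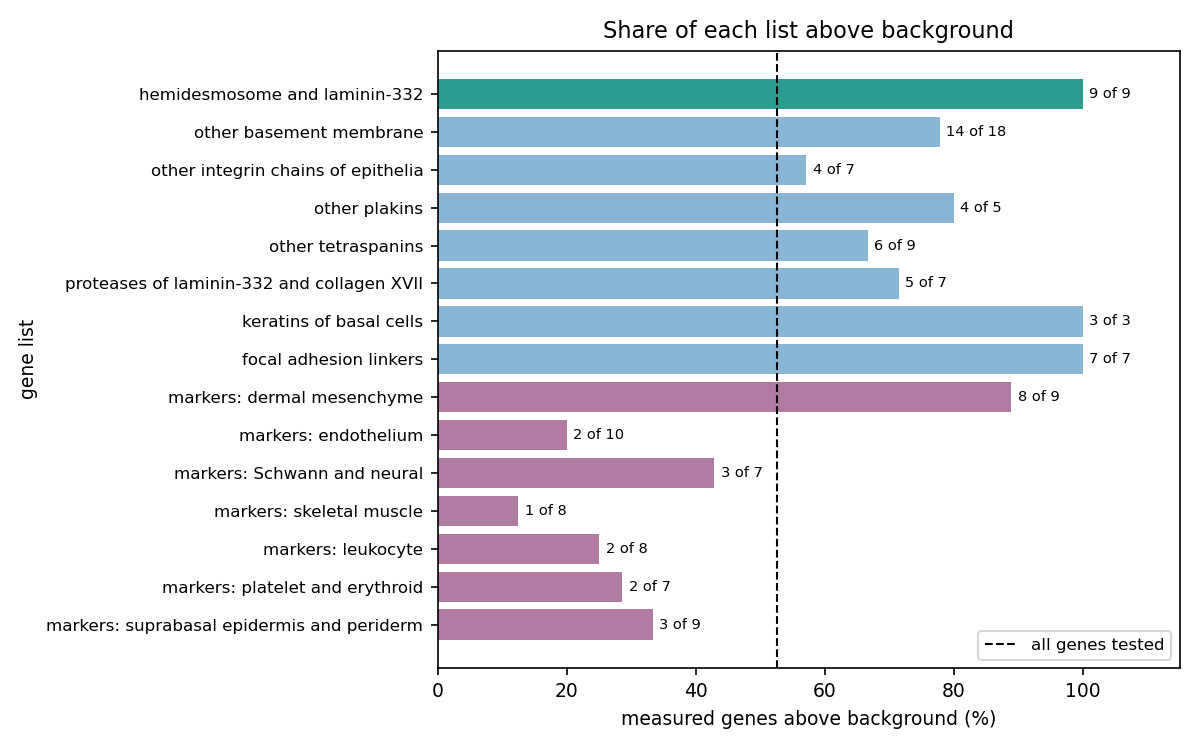
Share of the measured genes of each list that were above background (x axis, %), with counts beside the bars and the share of all genes tested, 52.5%, as a dashed line. The 9 hemidesmosome and laminin-332 genes are at 9 of 9, and of the marker lists of other cells (purple) dermal mesenchyme, at 8 of 9, is the one to the right of the line.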

How the data were processed

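The authors deposited log2 expression values per probe set. RMA and the affy package are the tools listed, without version or settings, per the submitters' processing notes. RMA corrects background, normalizes arrays and summarises probes, which compresses weak signals. Whether the 3 arrays were normalized together, and the genome build, are not given in the sources used here. The table held 45141 probe sets, of which 104 were controls. GEO's platform annotation gave 28898 of them 1 symbol, 551 several and 15588 none, and only the first were used. All 9 member symbols matched RefSeq by gene ID.

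Values minus the array's threshold were fitted with limma 3.58.1 in R 4.3.3 (intercept, empirical Bayes with a trend, one-sided), over 17097 genes and again over 28898 probe sets. The p-values leave out the uncertainty of the threshold. Arrays give no counting depth, and their number limits the precision. Python 3.11.15 with pandas 2.3.3 and matplotlib 3.10.9 was used for sequences and plots.

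The members and gene lists were chosen with earlier results of these data known. Named were all members, Trp63, Lgr5, the first 3 genes above background and the first 2 others of each anchoring list, and the first 2 of each marker list. Krt8, Krt18 and Cdh3 are epithelial markers named besides. Col7a1, Macf1, Col1a1, Col3a1, Dcn, Twist2, Klf1, Itga2b, Mbp, Foxd3, S100b and Elavl4 were named after their values were seen. List members with no probe set of a single symbol were not analysed here. No gene was named for a like pattern, since 3 arrays of 1 group give no correlation. Alternatives were other thresholds, probe set choices, normalizations, a fit without the trend, and leaving out each array.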

Additional observations from a re-analysis of the deposited data

How the results depend on the processing

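Of 12 alternatives, 9 kept all 9 members above background. The count of members was 8 with tissue-restricted genes as background, 8 with the antigenomic threshold and 6 with the lowest probe set of each gene. With tissue-restricted genes as background, 4997 genes and 6821 probe sets were above background, and Lamb3 was below the threshold (-0.0132). With the brightest antigenomic control as threshold, 5399 genes and 7610 probe sets were, and Lamb3 (0.04) lost its call. With the lowest probe set of each gene, 5824 genes were, and Lama3 (-0.55) and Cd151 (-0.88) were below the threshold, while Dst (0.54, limma adjusted p = 0.0961) lost its call. This follows from the construction, since it takes the weakest probe set. Members with a range of 1 log2 unit or more numbered 1 with centred arrays and 1 with quantile normalization, 4 when probe sets of a gene were averaged and 2 without probe sets ending in _x_at or _s_at. The last of these, and a background without receptor pseudogenes, were chosen after seeing the data. Leaving out an array changed none of the members' gene calls. Member probe sets above background numbered 19 without replicate 1 and 19 without receptor pseudogenes, against 18 in the main fit. No paired analysis was possible because there was 1 group. No array of a member could be judged as standing apart, since 3 arrays are too few. Signal over background limits what can be said of Lamb3 and of weak probe sets.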
